A study of Homo sapiens with 12 samples.

Results

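The transcripts of 10 genes that switch cells from G2 into mitosis were followed in 12 RNA-seq libraries: the phosphatases CDC25A, CDC25B and CDC25C, the kinases WEE1 and PKMYT1 that oppose them, the kinase CDK1 with its cyclins CCNA2, CCNB1 and CCNB2, and the kinase PLK1. They were taken as a fixed list of gene symbols, matched by Ensembl identifier to the deposited counts, and are 10 of 12830 protein-coding genes tested. All 10 passed the filter on low values, an FPKM (fragments on the gene per kilobase of exon and per library total) above 0.5 in the mean of at least 1 group.

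The study asked how CARM1, a protein arginine methyltransferase, and the NuRD chromatin remodeling complex act on gene expression. HEK293T cells, a human embryonic kidney line that carries the viral large T antigen and is called HEK293 in the text of the study, received control siRNA (siCTL) or siRNA against CARM1 (siCARM1) or against the NuRD components CHD4 (siCHD4), HDAC2 (siHDAC2), GATAD2A (siGATAD2A) or KDM1A (siKDM1A), with 2 libraries in each of the 6 groups. The labels give no siRNA sequence, dose or time after transfection. The methods of the study list siRNA sequences without saying which of those against CARM1 was used for RNA-seq. The labels do not say whether the 2 libraries of a group came from separate cultures, so p-values measure the spread between these libraries, which may be technical. The labels also name 2 sequencing companies without assigning libraries to them.

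CDK1 bound to a B-type cyclin is the kinase that drives entry into mitosis. Until then WEE1 in the nucleus and PKMYT1 at the Golgi and endoplasmic reticulum keep it inactive by phosphorylating its ATP-binding site, and the CDC25 phosphatases remove these phosphates. PLK1 phosphorylates CDC25C and WEE1 in opposite senses, which turns the pair of reactions into a switch, and many genes of the set peak in G2 and M phase under promoters with CCAAT boxes, bound by NF-Y, and a CHR element, bound by DREAM and MuvB complexes.

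Since the transcripts of this set are periodic, their promoter sequences were read first, to show what the members share apart from the list they were taken from. Windows from 250 bases before to 50 bases after each annotated start came from RefSeq (GRCh38.p14), which gave 15 windows for 8 of the 10 genes, with 4 starts each for CDC25B and CDC25C, 2 for CDK1 and 1 for each of the other 5. WEE1 and PKMYT1 had no entry. Stretches upstream of the start are printed 5′ to 3′ on the strand of the gene, with capitals for the letters of the CCAAT box (CCAAT, which reads as ATTGG where it lies on the other strand) and of the CHR. The CHR was searched as 4 variants, namely TTTGAA, then the variant TTCGAA, then the variant TTTAAA, and last the variant CTTGAA. For CDC25B and CDC25C the third and the fourth of their starts are shown, and for CDK1 the second, chosen because a CHR lies close upstream of them.
CDC25A (chr3:48188438-48188517, minus strand): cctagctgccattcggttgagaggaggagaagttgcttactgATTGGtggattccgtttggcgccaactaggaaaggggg
CDC25B (chr20:3796210-3796289, plus strand): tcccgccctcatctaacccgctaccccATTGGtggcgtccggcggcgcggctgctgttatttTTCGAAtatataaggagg
CDC25C (chr5:138331820-138331849, minus strand): tgggctggcggaaggTTTGAAtggtcaacg
CDK1 (chr10:60778442-60778471, plus strand): ccggggccctttagcgcggtgagTTTGAAa
CCNA2 (chr4:121823904-121823983, minus strand): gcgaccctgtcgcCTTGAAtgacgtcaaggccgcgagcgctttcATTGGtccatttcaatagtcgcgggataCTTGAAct
CCNB1 (chr5:69167050-69167129, plus strand): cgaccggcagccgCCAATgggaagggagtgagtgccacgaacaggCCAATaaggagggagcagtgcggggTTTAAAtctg
CCNB2 (chr15:59105046-59105125, plus strand): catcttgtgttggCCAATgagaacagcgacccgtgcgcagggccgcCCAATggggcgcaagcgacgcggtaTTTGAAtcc
PLK1 (chr16:23678789-23678868, plus strand): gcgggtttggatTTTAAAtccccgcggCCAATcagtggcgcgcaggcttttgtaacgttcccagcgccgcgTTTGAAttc
In the 4 genes CCNA2, CCNB1, CCNB2 and PLK1 a CHR variant lay at nearly the same distance from the start (first letter at −28, −30, −29 and −29), and it lay at −30 in CDC25C, at −38 in CDC25B and at −13 in CDK1 at the starts shown. At their other starts the CHR was elsewhere or not found: 2 windows each of CDC25B and CDC25C held none, the remaining one held it after the start (at 33 and 44), and the first window of CDK1 held it at −161 and −131. Between −38 and −13 the letters differed: CTTGAA in CCNA2, TTTAAA in CCNB1, TTCGAA in CDC25B, and TTTGAA in CCNB2, PLK1, CDC25C and CDK1. Further CHR matches at the starts shown were TTTGAA at −69 and 10 in CDK1 and CTTGAA at −87 in CCNA2. TTTAAA also lay at −88 and −148 in PLK1 and at −193 in CCNB2. No CHR variant was in the window of CDC25A, whose stretch holds a CCAAT box at −58 and the letters GGCGC, an E2F core, at −41.

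Both strands were searched, and overlapping matches were each counted. CCAAT was in 11 of the 15 windows, at least 1 for each of the 8 genes, and in 34.6% of all 35116 windows of the table. Any CHR variant was in 10 of 15 windows (7 of 8 genes) against 32.2% of all windows, and both elements together were in 9 of 15 windows against 12.4%. By variant, TTTGAA was in 15.2% of all windows, TTCGAA in 1.45%, TTTAAA in 12.2% and CTTGAA in 11.2%. The E2F core GGCGC was in 13 of the 15 windows against 48.6% of all, and the E2F core GGGAAA in 4 of 15 against 26.3%. Windows of 1 gene overlap or neighbor each other, and a match of letters is not a bound site.

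Per length, in control cells, CCNB1 was the most abundant of the 10 at 92.0 ± 0.161 FPKM (SD, n = 2 here and in all group values), followed by CDC25B at 78.4 ± 1.60. CCNA2 (54.9 ± 0.366), CDK1 (49.6 ± 0.626) and PKMYT1 (48.1 ± 1.01) formed the middle of the order, and PLK1 (33.7 ± 0.205), CCNB2 (28.0 ± 0.699) and CDC25A (22.9 ± 0.430) lay below them. WEE1 at 16.3 ± 0.0567 and CDC25C at 11.1 ± 0.288 had the lowest FPKM. All further levels are in CPM, counts scaled to a common library total by TMM factors and not divided by length, so they compare a gene between groups and not genes with each other.

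The libraries held 19308315 to 28648657 fragments on genes. Each targeted transcript was lower in its own knockdown, with log2 fold changes of −2.37 for CARM1, −2.35 for HDAC2, −1.74 for GATAD2A and −2.59 for KDM1A, but of only −0.54 for CHD4, 46.9% of whose exonic bases are shared with another annotated gene on the same strand (ENSG00000285238). The targets also varied in other knockdowns: GATAD2A was at 369 ± 2.73 CPM in siCHD4 against 174 ± 11.1 in siCTL, and CHD4 at 31.7 ± 1.33 in siCARM1 against 39.6 ± 0.0782. Of the markers listed for HEK293 cells, VIM, CDH2 and LHX1 were present in every library, while NEFM had at most 18 counts and INA and PAX2 at most 4.34 and 2.31 CPM. Of the 5 genes given here for other cell types, PTPRC, ALB, MLANA and ESR1 had at most 14 counts, and MYOD1 at most 56. Both libraries of every group differed by more than sampling noise, least in siCHD4 (chi-square per degree of freedom 1.77) and most in siCARM1 (4.97).

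A gene was called lower or higher where edgeR's quasi-likelihood test gave an adjusted p of 0.05 or less (Benjamini-Hochberg over all genes tested) and the fold change was at least 1.2. Of the 50 changes of 10 members in 5 knockdowns, 13 were called lower, 2 higher and 35 neither. In siCARM1, 4 members were lower and 0 higher, where 14.5% and 14.9% of all genes tested were. In siCHD4, 2 members were lower and 1 higher, against 24.9% and 24.0% of all genes. In siHDAC2, 1 member was lower and 0 higher, against 9.00% and 10.6%. In siGATAD2A, 3 were lower and 1 higher, against 18.2% and 15.7%, and in siKDM1A, 3 were lower and 0 higher, against 11.5% and 14.2%. The share of members called in either direction was therefore 40.0%, 30.0%, 10.0%, 40.0% and 30.0% in that order. The percentages of all genes are given by direction, so lower and higher have to be added for the matching background. Against that sum the share of members was smaller in siCHD4 and siHDAC2 and larger in siCARM1, siGATAD2A and siKDM1A. As 1 of the 10 members makes up 10.0%, these differences rest on few genes and do not set the members apart. The set was not tested against the background. At an unadjusted p under 0.05 (edgeR), 8, 7, 6, 7 and 8 of the 10 members differed from siCTL. The share of all genes at that threshold was not computed, so these counts do not set the members apart. DESeq2 gave the same counts of calls as edgeR in every knockdown.

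The median log2 fold change of the 10 members was −0.24 in siCARM1 and −0.17 in siKDM1A, and −0.14, −0.11 and −0.10 in siHDAC2, siGATAD2A and siCHD4. Over all genes tested it lay within 0.01 of 0 in each knockdown. Negative fold changes were found for all 10 members in siKDM1A, 9 in siHDAC2, 8 in siGATAD2A, and 7 each in siCARM1 and siCHD4. All 5 comparisons use the same pair of siCTL libraries, so a deviation of these libraries enters each of them. In bulk RNA, a smaller share of cells in G2 and M phase and less transcript per cell cannot be told apart. By flow cytometry the study reported more cells in G1 after knockdown of each of these targets. The part of such a shift in the changes of these transcripts was not tested. By the test of any difference among the 6 groups, 9 of the 10 members passed an adjusted p of 0.05, as did 91.1% of all genes, and CCNB2 was the member that did not (adjusted p = 0.11, edgeR).

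**Figure D1:**
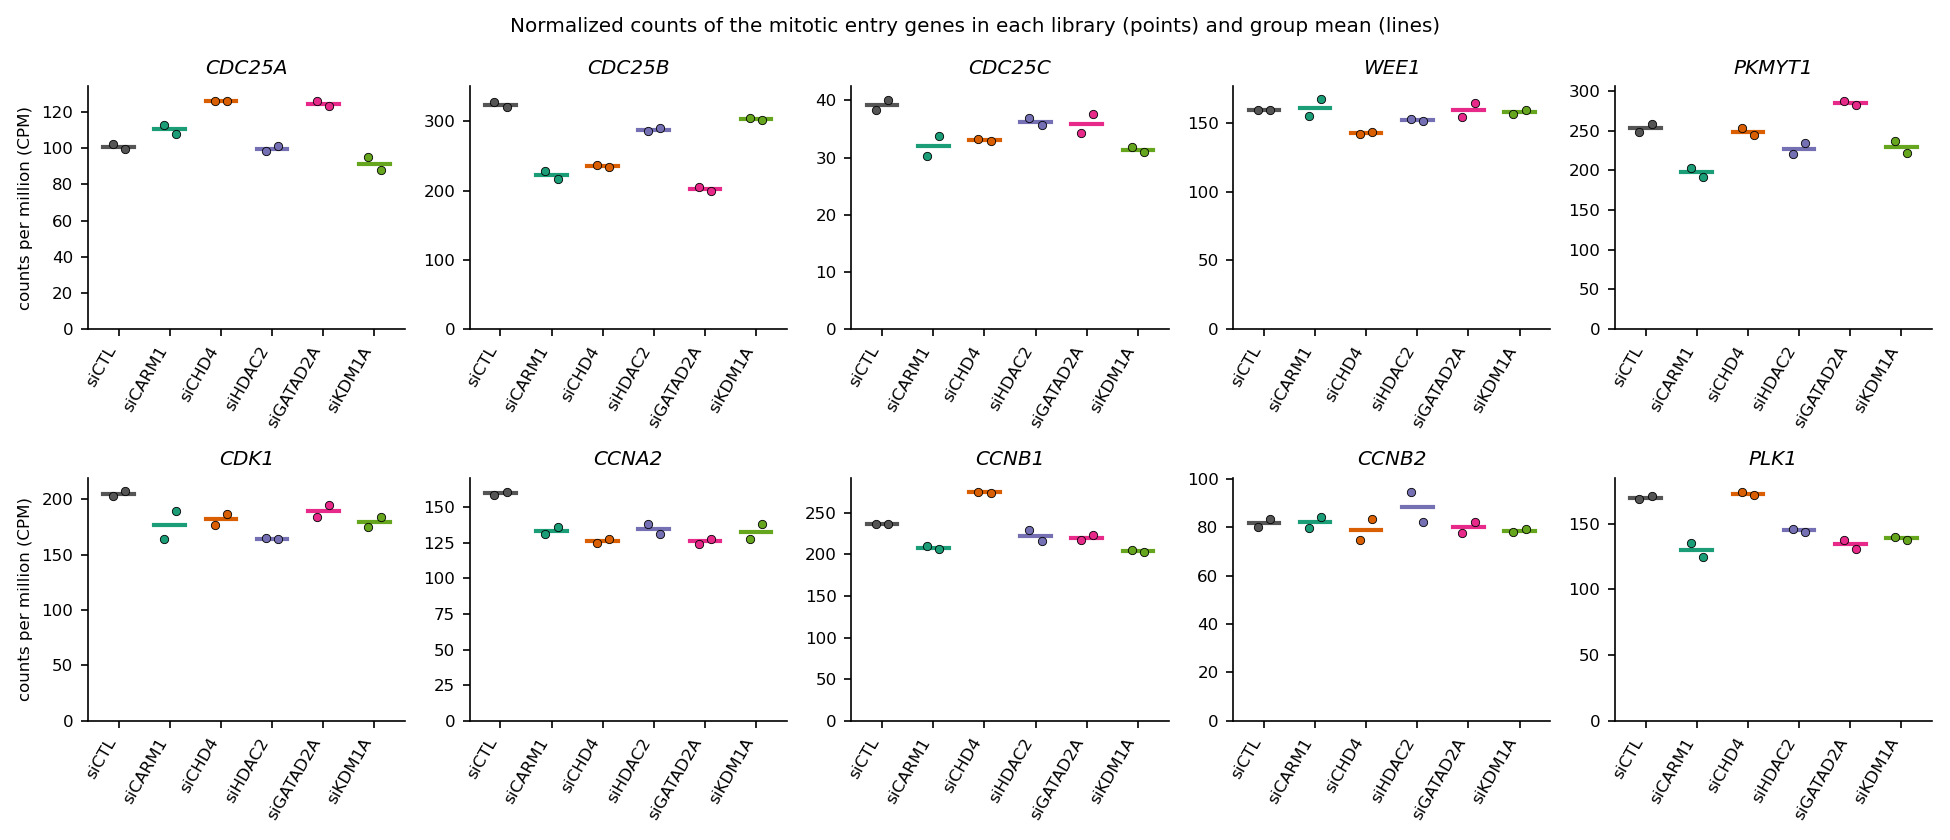
CPM of each of the 10 genes (y axis, from 0) in the 2 libraries of each group (points) with the group mean (line). CDC25B falls into a high set (siCTL, siHDAC2, siKDM1A, 286 CPM or more) and a low set (siCARM1, siCHD4, siGATAD2A, 237 CPM or less), while WEE1 stays between 142 and 167 CPM in all 12 libraries.

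CDC25B, which acts early in G2 to start CDK1 activation at the centrosome, had the widest range of the 10 members and was lower in 3 of the 5 knockdowns. The gene (ENSG00000101224.17, GRCh37 chromosome 20, 3767419 to 3786768, plus strand) was at 328 and 320.2 CPM in the siCTL libraries, 229 and 217 in siCARM1, 237 and 234 in siCHD4, 286 and 290.2 in siHDAC2, 205 and 199 in siGATAD2A, and 305 and 302 in siKDM1A. Every library of siCARM1, siCHD4 and siGATAD2A thus lay below every library of the other 3 groups. The decrease was −0.68 ± 0.041 on the log2 scale (± SE) in siGATAD2A (adjusted p = 7.9e-15, edgeR), or −37.7%. It was −0.54 ± 0.040 in siCARM1 (adjusted p = 2.5e-12, edgeR) and −0.46 ± 0.040 in siCHD4 (adjusted p = 1.9e-11, edgeR). In siHDAC2 the fold change was −0.17 ± 0.040 (adjusted p = 0.0013, edgeR), under the 1.2-fold minimum, and in siKDM1A it was −0.09 ± 0.040 (adjusted p = 0.055, edgeR).

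The differences between knockdowns were tested directly for CDC25B. In the order of its levels, the libraries of siKDM1A (303 ± 2.59 CPM) lay below those of siCTL (324 ± 5.49), and those of siHDAC2 (288 ± 2.86) below those of siKDM1A, but neither step passed an adjusted p of 0.05 (0.055 and 0.17, edgeR). A step of 0.29 on the log2 scale separated siHDAC2 from siCHD4 (235 ± 2.39, adjusted p = 1.9e-07, edgeR). The libraries of siCARM1 (223 ± 8.41) lay below those of siCHD4 by 0.08, which did not pass either (adjusted p = 0.090, edgeR), whereas siGATAD2A (202 ± 3.65) was below siCARM1 by 0.14 (adjusted p = 0.0041, edgeR). All 6 pairs made of a knockdown from the low set and siHDAC2 or siKDM1A were called, with log2 differences of 0.29 to 0.59 in size.

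CDC25A, which acts on cyclin complexes in S phase as well as in G2 and M phase and is degraded after DNA damage, went the other way. The gene (ENSG00000164045.12, GRCh37 chromosome 3, 48198636 to 48229907, minus strand) was at 102 and 99.5 CPM in siCTL, 113 and 108 in siCARM1, 126 and 126 in siCHD4, 98.2 and 101 in siHDAC2, 126 and 123 in siGATAD2A, and 94.9 and 87.7 in siKDM1A. The siCHD4 and siGATAD2A libraries were above all the others, and both siKDM1A libraries were below all the others. CDC25A rose by 0.33 ± 0.050 in siCHD4 (adjusted p = 1.1e-06, edgeR) and by 0.31 ± 0.050 in siGATAD2A (adjusted p = 4.2e-06, edgeR). Its fold changes of 0.14 in siCARM1 and −0.14 in siKDM1A both had an adjusted p of 0.027 (edgeR) and stayed under the fold minimum, and siHDAC2 did not differ from siCTL beyond the spread (−0.02, adjusted p = 0.84, edgeR). The siCHD4 and siGATAD2A libraries overlapped (adjusted p = 0.80, edgeR), and each was above siKDM1A, by 0.47 ± 0.050 and 0.45 ± 0.050. Thus in siCHD4 and siGATAD2A the A and B phosphatases were called in opposite directions.

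CDC25C, the phosphatase that PLK1 and CDK1 activate at the onset of mitosis, had the fewest counts of the 3 (699 to 958 per library). The gene (ENSG00000158402.20, GRCh37 chromosome 5, 137620958 to 137674044, minus strand) was at 38.4 and 40.0 CPM in siCTL, 30.3 and 33.7 in siCARM1, 33.2 and 32.9 in siCHD4, 36.9 and 35.7 in siHDAC2, 34.3 and 37.6 in siGATAD2A, and 31.9 and 30.9 in siKDM1A. All 10 knockdown libraries were below both siCTL libraries. The change was called in siKDM1A (−0.32 ± 0.073, adjusted p = 0.00059, edgeR) and siCARM1 (−0.30 ± 0.072, adjusted p = 0.0011, edgeR), and without siCARM1 replicate 1 the latter was −0.22 (adjusted p = 0.035, edgeR) and no longer called. In siCHD4 it was −0.25 ± 0.072 (adjusted p = 0.0034, edgeR), just under the fold minimum, and −0.27 and called without siCHD4 replicate 1, while siCTL replicate 1 left out gave −0.28. None of the 10 differences of CDC25C between knockdowns was called. FAM53C shares 8.80% of its exonic bases on the opposite strand, where counts were 14.5% to 19.5% of those used.

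The make-up of the CDC25 transcripts was given per length. Summed FPKM of the 3 phosphatases was 112 ± 1.75 in siCTL, 103 ± 1.71 in siKDM1A, 102 ± 0.492 in siHDAC2, 92.6 ± 0.535 in siCHD4, 88.1 ± 2.23 in siCARM1 and 87.5 ± 0.675 in siGATAD2A. CDC25B made up 70.0% and 69.5% of that sum in the siCTL libraries and 56.2% and 55.4% in siGATAD2A, and CDC25A 20.4% and 20.3% in siCTL and 32.7% and 32.3% in siGATAD2A. In siCARM1 and siCHD4 the CDC25B share was 61.1% ± 0.734 and 59.9% ± 0.221, and in siHDAC2 and siKDM1A 67.9% ± 0.120 and 71.2% ± 0.780. CDC25C kept a share of 8.61% to 12.2% in every library. With 2 libraries against 2, an exact two-sided permutation test of such a share cannot go below p = 0.333, so these values are given as a description.

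Of the 2 opposing kinases, WEE1 had no call and PKMYT1 had 1. WEE1 (ENSG00000166483.11, GRCh37 chromosome 11, 9595217 to 9615004, plus strand) was at 159 CPM in both siCTL libraries, 155 and 167 in siCARM1, 142 and 143 in siCHD4, 153 and 151 in siHDAC2, 154 and 164 in siGATAD2A, and 156 and 159 in siKDM1A. The siCHD4 libraries were the lowest of the 12, and the largest change of WEE1 was −0.16 ± 0.047 in siCHD4 (adjusted p = 0.0036, edgeR). The other 4 changes lay between −0.07 and 0.02.

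PKMYT1, the membrane-bound kinase, was lower in siCARM1 and had its highest level in siGATAD2A. The gene (ENSG00000127564.17, GRCh37 chromosome 16, 3018025 to 3030480, minus strand) was at 249 and 258 CPM in siCTL, 203 and 192 in siCARM1, 253 and 245 in siCHD4, 220.2 and 235 in siHDAC2, 287 and 282 in siGATAD2A, and 237 and 222 in siKDM1A. Both siGATAD2A libraries were above, and both siCARM1 libraries below, all the others. PKMYT1 fell by 0.36 ± 0.045 on the log2 scale in siCARM1 (adjusted p = 8.4e-08, edgeR), the 1 call against siCTL, and its 0.17 ± 0.044 in siGATAD2A (adjusted p = 0.0021, edgeR) was under the fold minimum. The difference between siCARM1 and siGATAD2A was −0.53 ± 0.044 (adjusted p = 1.9e-11, edgeR), the largest in size of its 10 between knockdowns. KREMEN2 and PAQR4 share 31.9% of the exonic bases on the opposite strand, where counts were 22.7% to 38.7% of those used.

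Summed CDC25 FPKM over summed WEE1 and PKMYT1 FPKM was 1.78 and 1.71 in the siCTL libraries and 1.25 and 1.24 in siGATAD2A, the lowest group. It was 1.65 and 1.62 in siCARM1, 1.53 and 1.55 in siCHD4, 1.78 and 1.72 in siHDAC2 and 1.72 and 1.74 in siKDM1A. The siGATAD2A libraries were thus below every other library, with a lower numerator (CDC25B) and a higher denominator (PKMYT1), whereas siHDAC2 and siKDM1A overlapped siCTL. The ratio concerns RNA per length and not the activity of the enzymes.

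**Figure D2:**
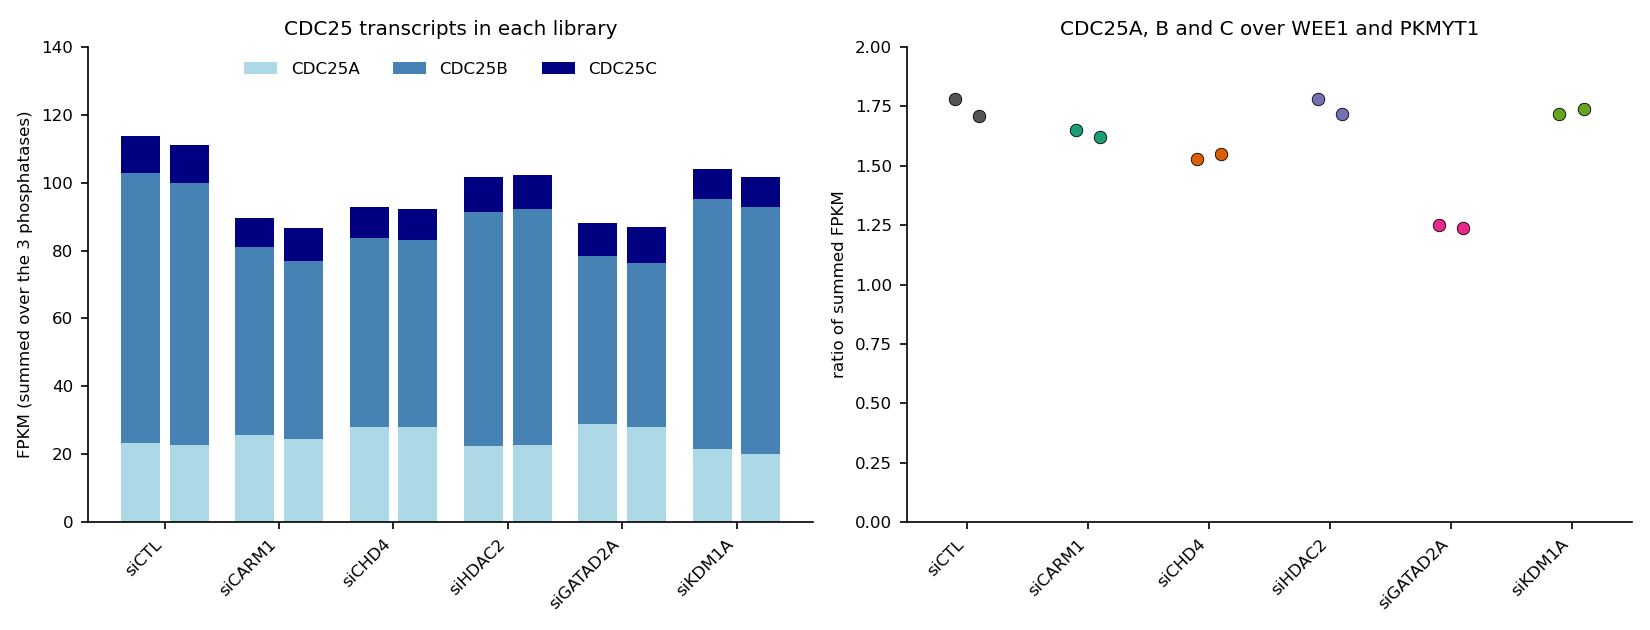
Left, FPKM of CDC25A, CDC25B and CDC25C stacked for each of the 12 libraries, in pairs by group. Right, the ratio of their sum to the summed FPKM of WEE1 and PKMYT1 in each library (points), which lies between 1.71 and 1.78 in siCTL and at 1.24 and 1.25 in siGATAD2A.

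CDK1, the kinase that all of these act on, was lower in every knockdown library than in either siCTL library, but was called in siHDAC2 only. The gene (ENSG00000170312.16, GRCh37 chromosome 10, 62538089 to 62554610, plus strand) was at 203 and 207 CPM in siCTL, 164 and 189 in siCARM1, 177 and 187 in siCHD4, 165 and 164 in siHDAC2, 184 and 195 in siGATAD2A, and 175 and 184 in siKDM1A. Its fold change was −0.32 ± 0.052 in siHDAC2 (adjusted p = 1.4e-05, edgeR) and −0.22 to −0.11 in the other 4, and none of its 10 differences between knockdowns was called. The siCARM1 libraries lay further apart than those of any other group, and without siCARM1 replicate 2 the change there was −0.33 (adjusted p = 2.5e-06, edgeR) and was called.

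CCNA2, the A-type cyclin of S and G2 phase, was the member with the most even decrease, between −0.34 and −0.25 in all 5 knockdowns. The gene (ENSG00000145386.11, GRCh37 chromosome 4, 122737599 to 122745038, minus strand) was at 159 and 161 CPM in siCTL, 131 and 136 in siCARM1, 125 and 128 in siCHD4, 138 and 131 in siHDAC2, 124 and 128 in siGATAD2A, and 128 and 138 in siKDM1A. All 10 knockdown libraries were below both siCTL libraries, and the adjusted p was between 3.6e-07 and 0.00015 (edgeR) in the 5 comparisons. It was called in siCHD4 (−0.34 ± 0.048), siGATAD2A (−0.34 ± 0.048) and siKDM1A (−0.26 ± 0.048), while −0.26 in siCARM1 and −0.25 in siHDAC2 were just under the fold minimum. In these last 3 knockdowns the outcome turned on single libraries and on the filter on low values. In siKDM1A the call was lost with FPKM above 1 (−0.26) and without siCTL replicate 2 (−0.26) or siKDM1A replicate 1 (−0.21). In siCARM1 it was gained without siCTL replicate 1 (−0.27) or siCARM1 replicate 2 (−0.29), and in siHDAC2 without siCTL replicate 1 (−0.27) or siHDAC2 replicate 1 (−0.29). A call was also gained in siCARM1 with every coding gene of at least 1 count (−0.27), and with edgeR's filterByExpr in siCARM1 (−0.26) and siHDAC2 (−0.28). None of the 10 differences of CCNA2 between knockdowns was called.

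CCNB1, the main B-type cyclin of CDK1, was not called against siCTL in any knockdown and yet differed between knockdowns. The gene (ENSG00000134057.15, GRCh37 chromosome 5, 68462962 to 68474072, plus strand) was at 237 CPM in both siCTL libraries, 209.9 and 206 in siCARM1, 275 and 274 in siCHD4, 229 and 216 in siHDAC2, 217 and 223 in siGATAD2A, and 205 and 203 in siKDM1A. The siCHD4 libraries were the only ones above siCTL, with a fold change of 0.21 ± 0.041 (adjusted p = 3.6e-05, edgeR), and siKDM1A had the opposite −0.21 ± 0.042 (adjusted p = 0.00011, edgeR). All 4 differences of CCNB1 between siCHD4 and another knockdown were called, from 0.30 against siHDAC2 to 0.43 against siKDM1A (adjusted p = 1.7e-10, edgeR).

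CCNB2, the Golgi-associated B-type cyclin, varied least with the knockdowns. The gene (ENSG00000157456.8, GRCh37 chromosome 15, 59397325 to 59417244, plus strand) ranged from 74.6 CPM in a siCHD4 library to 94.8 in a siHDAC2 library, with a median of 81.2, and its fold changes lay between −0.06 and 0.11 with SEs of 0.062 or 0.063. Groups overlapped siCTL (80.1 and 83.4 CPM) in 4 of the 5 knockdowns. CCNB1 and CCNB2 FPKM together were 2.42 ± 0.0197 times that of CDK1 in siCTL, 3.04 ± 0.0662 in siCHD4 and 2.94 ± 0.150 in siHDAC2, and 2.46 to 2.56 in the other 3 groups.

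PLK1, the kinase that relieves WEE1 inhibition and activates CDC25C, was lower in 3 knockdowns. The gene (ENSG00000166851.15, GRCh37 chromosome 16, 23688977 to 23701688, plus strand) was at 169 and 171 CPM in siCTL, 135 and 125 in siCARM1, 174 and 172 in siCHD4, 146 and 144 in siHDAC2, 138 and 131 in siGATAD2A, and 139.9 and 138 in siKDM1A. The siCTL and siCHD4 libraries, between 169 and 174 CPM, stood above the other 8, between 125 and 146. PLK1 changed by −0.39 ± 0.047 in siCARM1 (adjusted p = 6.1e-08, edgeR), −0.34 ± 0.047 in siGATAD2A (adjusted p = 4.6e-07, edgeR) and −0.29 ± 0.047 in siKDM1A (adjusted p = 9.0e-06, edgeR). In siHDAC2 it was −0.23 ± 0.047 (adjusted p = 0.00028, edgeR), under the fold minimum, and in siCHD4 0.03 ± 0.046. With unstranded counts the change in siHDAC2 was −0.26 (adjusted p = 0.00025, edgeR) and was called. ERN2 and ENSG00000261266 share 12.8% of the exonic bases of PLK1 on the opposite strand. PLK1 in siCHD4 was above siCARM1, siGATAD2A and siKDM1A by 0.41, 0.36 and 0.31, and all 3 differences were called.

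**Figure D3:**
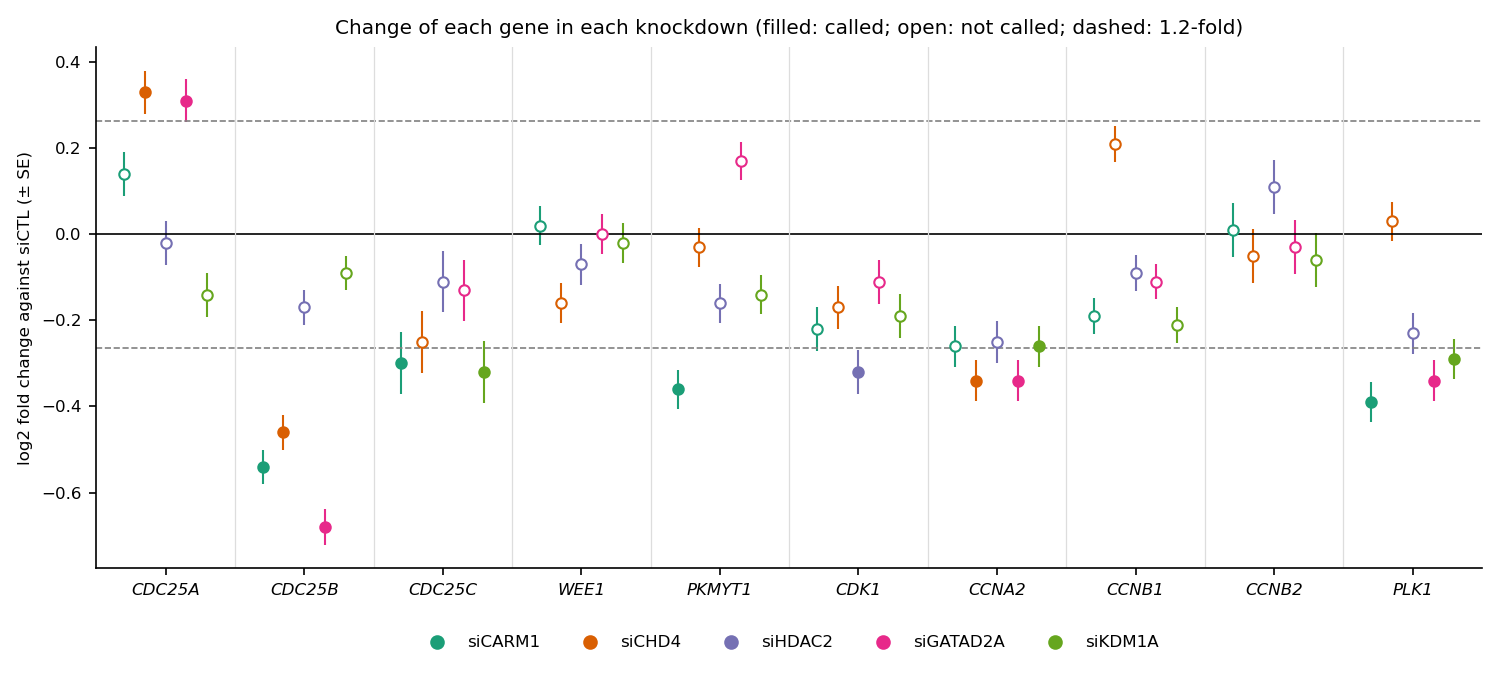
log2 fold change against siCTL (y axis, ± SE) of the 10 genes (x axis) in the 5 knockdowns (colors), filled where called and open where not, with dashed lines at 1.2-fold. CDC25B reaches −0.68 in siGATAD2A and CDC25A 0.33 in siCHD4, and the points of WEE1 and CCNB2 lie within −0.16 and 0.11.

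Between pairs of knockdowns, 22 of 100 member differences were called, all in CDC25A (5), CDC25B (6), PKMYT1 (4), CCNB1 (4) and PLK1 (3). With siCHD4 on one side, 3 members differed from siCARM1, 3 from siHDAC2, 2 from siGATAD2A and 4 from siKDM1A, where 47.7%, 48.8%, 44.8% and 47.7% of all genes did. siGATAD2A differed from siCARM1 in 1 member (33.8% of all genes), from siHDAC2 in 3 (29.5%) and from siKDM1A in 3 (32.1%). siCARM1 differed from siHDAC2 in 1 (19.3%) and from siKDM1A in 2 (21.0%), and siHDAC2 and siKDM1A differed in 0 (14.3%). With no fold minimum, 5 members differed between siHDAC2 and siKDM1A at an unadjusted p under 0.05 (edgeR). Only CDC25C, CCNB1 and CCNB2 also passed an adjusted p of 0.05 (0.032, 0.026 and 0.045, edgeR). The share of all genes that pass without a fold minimum was not computed for this pair.

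The other genes of the pathway were taken from a list of 46 in 9 classes, of which 45 were tested and PPP2R2B, at 1.93 ± 0.447 CPM in siCTL, was not. Of their 225 changes, 34 were called lower and 30 higher. By knockdown, 10 were lower and 5 higher in siCARM1, 9 and 11 in siCHD4, 3 and 4 in siHDAC2, 6 and 8 in siGATAD2A, and 6 and 2 in siKDM1A. The shares called in either direction were 33.3%, 44.4%, 15.6%, 31.1% and 17.8%. Against lower and higher calls of all genes added up, the share was larger in siCARM1 and smaller in siCHD4, siHDAC2, siGATAD2A and siKDM1A. No test was made between these shares and the backgrounds, nor for the counts by class that follow. For those counts, 9.00% to 24.9% of all genes tested were called lower and 10.6% to 24.0% higher in a knockdown.

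Among the cyclins, CDK2 and the CKS adaptors (5 genes), 7 changes were lower and 2 higher. CCNA1, the second A-type cyclin, stood at 10.1 ± 0.779 CPM in siCTL and at 4.46 ± 0.168 in siCARM1, 4.31 ± 0.165 in siCHD4, 4.40 ± 0.337 in siGATAD2A and 6.08 ± 0.513 in siHDAC2, a change of −1.23 ± 0.149 in siCHD4 (adjusted p = 1.6e-08, edgeR), and was at 10.6 ± 1.27 in siKDM1A. CCNB3 rose in siCHD4 (0.76 ± 0.228, adjusted p = 0.0043, edgeR) from a low level of 2.18 ± 0.0893 CPM. The 3 genes of the CDK activating kinase, CDK7, CCNH and MNAT1, had no call in any of 15 changes, and their fold changes lay between −0.09 and 0.24.

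Both inhibitors that act on this step were called. CDKN1A, the p21 inhibitor of cyclin-dependent kinases, was at 271 ± 12 CPM in siCTL, 143 ± 9.58 in siCARM1, 152 ± 6.56 in siCHD4 and 143 ± 2.23 in siGATAD2A, where it was called lower, and at 234 ± 6.22 in siHDAC2 and 238 ± 4.18 in siKDM1A, where it was not. The knockdowns in which CDKN1A was lower were those in which CDC25B was lower. GADD45A, which can dissociate CDK1 from cyclin B, rose in siCARM1 (0.50 ± 0.083, adjusted p = 1.1e-05, edgeR) and siCHD4 (0.41 ± 0.084, adjusted p = 8.5e-05, edgeR).

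The 5 checkpoint kinases gave 4 lower and 4 higher calls. ATM, which is activated by double-strand breaks, rose in siCARM1 (0.60 ± 0.047, adjusted p = 6.9e-12, edgeR), siHDAC2 (0.34) and siGATAD2A (0.33), and CHEK2, its target kinase, fell by 1.01 ± 0.068 on the log2 scale in siCHD4, from 61.3 ± 4.21 to 30.6 ± 0.447 CPM (adjusted p = 5.5e-14, edgeR), and was not called in the other 4. Of the PLK1 activators, AURKA was lower in siKDM1A (−0.34 ± 0.048, adjusted p = 8.6e-07, edgeR) and BORA was not called. The 7 proteins of the 14-3-3 family, which hold phosphorylated CDC25 in the cytoplasm, gave 6 lower and 3 higher calls. YWHAB was lower in siGATAD2A (−0.39 ± 0.036), siCARM1 (−0.34) and siKDM1A (−0.26), and YWHAG was higher in siCHD4 (0.36 ± 0.047) and siGATAD2A (0.33).

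Greatwall (MASTL) restrains the phosphatase PP2A-B55, which reverses CDK1 phosphorylation, through ENSA and ARPP19. This class had 13 higher and 2 lower calls among 30 changes, with no test of the class against all genes. PPP2R2A, the main B55 subunit, rose in siCARM1 (0.42 ± 0.050), siHDAC2 (0.40), siGATAD2A (0.37) and siCHD4 (0.26, at the fold minimum), and its 0.23 in siKDM1A was under it. PPP2R2C rose in 4 knockdowns, up to 0.58 ± 0.075 in siKDM1A (adjusted p = 2.3e-07, edgeR), and fell by 0.69 ± 0.084 on the log2 scale in siCHD4 (adjusted p = 1.7e-08, edgeR).

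The class of ubiquitin ligase genes for CDC25A, WEE1 and the cyclins held ligase subunits, a conjugating enzyme and an inhibitor. It gave 5 lower calls and 0 higher among 30 changes (edgeR, 1.2-fold minimum), a share of lower calls within the range over all genes. Among them were CDC20 in siGATAD2A (−0.29 ± 0.042, adjusted p = 8.0e-07, edgeR) and FBXO5, the inhibitor of the anaphase-promoting complex, in siCHD4 (−0.38 ± 0.061, adjusted p = 2.4e-06, edgeR). The 9 transcription factors of G2/M genes gave 6 lower and 6 higher calls. NFYC, a subunit of the CCAAT-binding factor NF-Y, was called lower in all 5 knockdowns, from −0.47 ± 0.073 in siCHD4 to −0.28 ± 0.072 in siGATAD2A. MYBL2, the B-Myb partner of MuvB at these promoters, rose in siGATAD2A, from 413 ± 1.31 to 590.3 ± 10.4 CPM (0.52 ± 0.041, adjusted p = 4.5e-12, edgeR), and in siCHD4 (0.34 ± 0.041), and was at −0.20 in siCARM1.

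**Figure D4:**
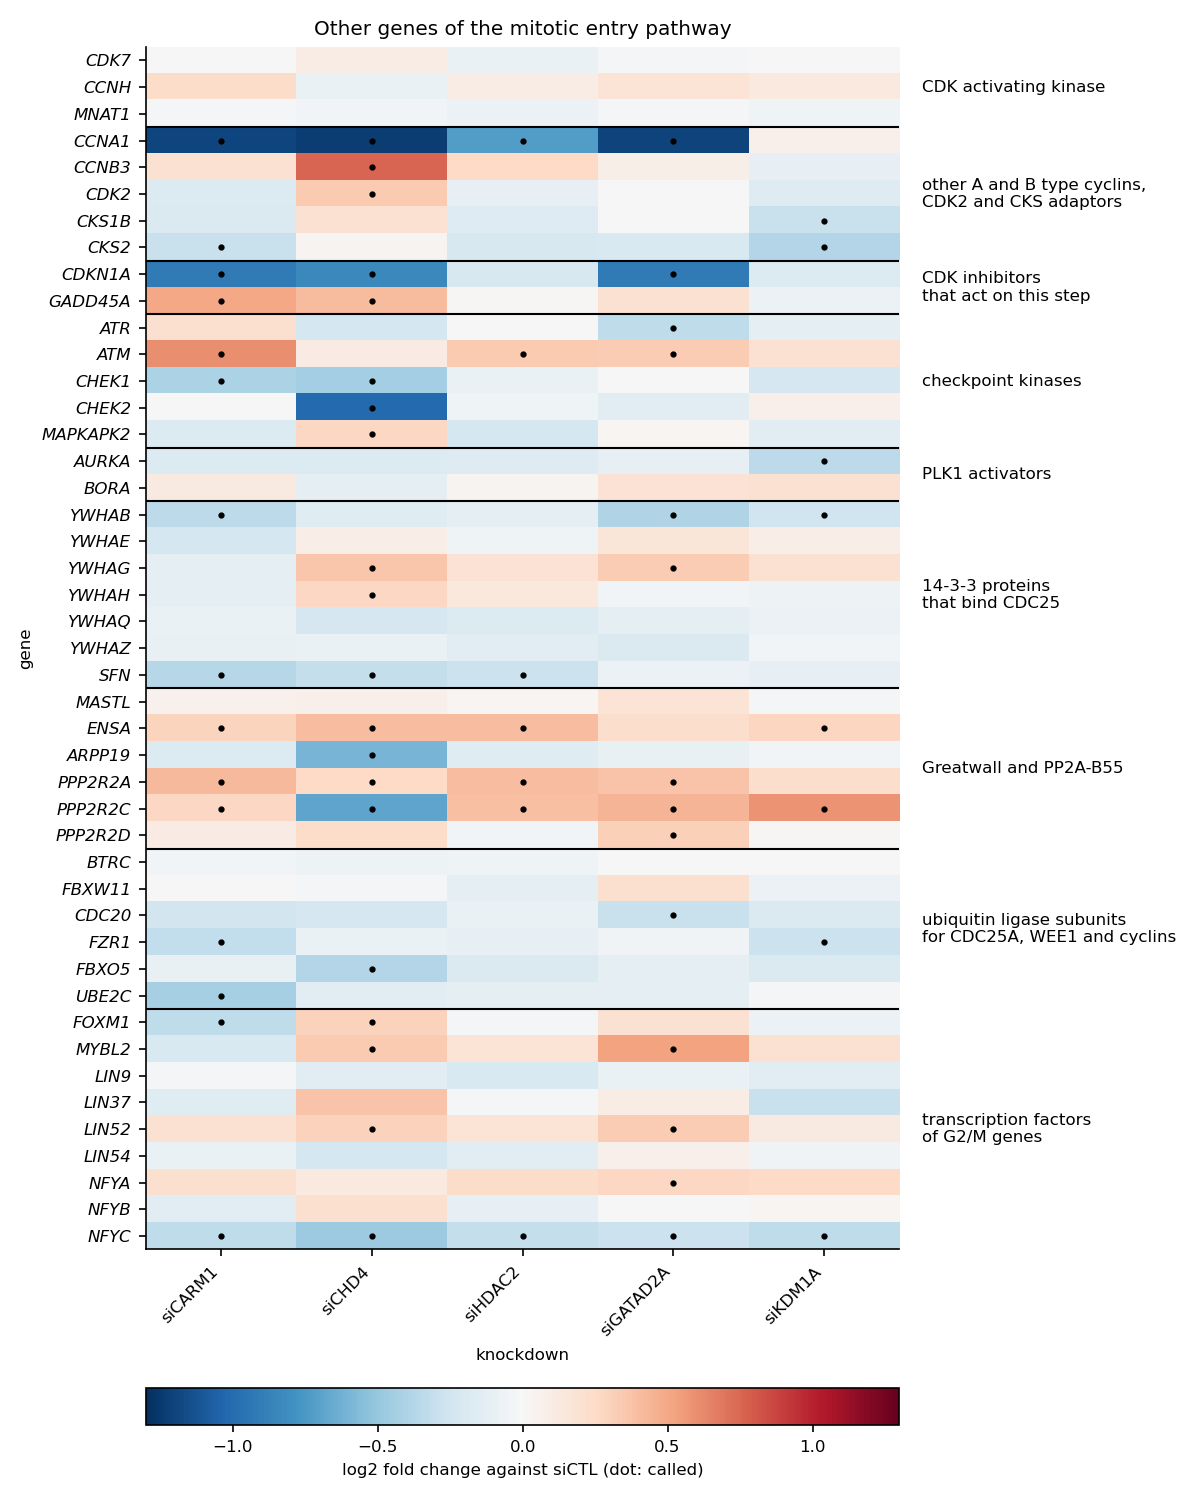
log2 fold change against siCTL (color) of the 45 tested genes of the pathway (rows, ordered by class) in the 5 knockdowns (columns), with a dot where called. CCNA1 and CDKN1A carry the strongest decreases in siCARM1, siCHD4 and siGATAD2A, CHEK2 in siCHD4, and the Greatwall and PP2A-B55 block holds 13 higher and 2 lower calls.

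Over the 12 libraries, the genes most like each phosphatase were taken as the 3 with the highest Pearson r of log2 CPM. For CDC25A they were KMT2D (r = 0.988), a histone methyltransferase, KCTD5 (0.972) and TRIM35 (0.963). For CDC25B they were HLA-DPA1 (0.981), CDKN1A (0.970) and TTC38 (0.969), and for CDC25C PPM1K (0.928), a mitochondrial phosphatase, ZNF75D (0.913) and RGP1 (0.905). KMT2D was at 542 ± 7.00 CPM in siCTL, 678 ± 2.22 in siCHD4, 700.2 ± 4.84 in siGATAD2A and 476 ± 24.3 in siKDM1A, so that siCHD4 and siGATAD2A were its 2 highest groups and siKDM1A its lowest, as they were for CDC25A. HLA-DPA1 was at 16.1 ± 1.44 CPM in siCTL and at 8.01 ± 0.797, 8.54 ± 0.0261 and 7.44 ± 0.695 in siCARM1, siCHD4 and siGATAD2A. The 12 points share 6 groups and a library size each, and the genes were picked as the highest of all others tested, so no p is given.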

How the data were processed

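RNA-seq counts were used from 12 HEK293T libraries. The authors deposited raw counts of fragments per Ensembl gene in STAR's layout, in 1 unstranded and 2 stranded columns; per the labels, STAR 2.7.10, CASAVA 1.4 and hg19 were used, and the annotation release is not given in the sources used here. The kit is directional, so reverse-strand counts were taken (the other strand held 7.93% to 8.40% as many). Of 60660 identifiers, 58662 (96.7%) matched GENCODE release 44 mapped to GRCh37, and 1.75% to 2.61% of the counts were on identifiers with no match. Fragments on no gene and with several locations were left out.

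Protein-coding genes with a mean FPKM above 0.5 in at least 1 group were tested with edgeR 4.0.16 (R 4.3.3): TMM scaling, 1 fit of 6 group means over all 12 libraries, quasi-likelihood tests, Benjamini-Hochberg adjustment within each comparison. FPKM used union exon lengths. Named genes are the 10 members, the targeted genes, up to 2 genes per pathway class with the largest mean change among those called, and the 3 genes most like each CDC25. Alternatives were DESeq2 1.42.0, its size factors, a replicate block, only the 2 groups compared, unstranded counts, 3 other filters, no fold minimum, and each library left out in turn. The members, lists and tests were chosen with earlier results of these data known. One further marker from the list for other cell types is not reported here, so the 5 given are not the whole list.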

Additional observations from a re-analysis of the deposited data

Results flagged for a closer look

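In 3 genes, 2 knockdowns moved in opposite directions from siCTL, each at an adjusted p of 0.05 or less (edgeR, with no fold minimum). The direct test of one of these knockdowns against the other also gave a call. How many of all genes tested meet this rule was not computed, so it does not set these genes apart. For CDC25A the log2 differences were 0.28 for siCARM1 minus siKDM1A, 0.47 for siCHD4 minus siKDM1A and 0.45 for siGATAD2A minus siKDM1A. For PKMYT1 they were −0.53 for siCARM1 minus siGATAD2A, −0.32 for siHDAC2 minus siGATAD2A and 0.31 for siGATAD2A minus siKDM1A. For CCNB1 they were −0.40 for siCARM1 minus siCHD4, 0.32 for siCHD4 minus siGATAD2A and 0.43 for siCHD4 minus siKDM1A. With 2 libraries per group, no library could be examined as an outlier within its group.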

How the results depend on the processing

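Of 1000 fold changes of the members recomputed under 20 alternatives, 972 kept their direction and their side of the threshold, 13 became called, 4 lost the call and 11 changed sign, the last all in changes within 0.05 of 0. The sign changes were found for CCNB2 in siCARM1 (−0.00084 with unstranded counts, −0.0026 with every coding gene of at least 1 count, −0.0017 with filterByExpr on every biotype, −0.03 without siCTL replicate 1 and −0.04 without siCARM1 replicate 2), PLK1 in siCHD4 (−0.01 with unstranded counts), WEE1 in siGATAD2A (0.0031 with FPKM above 1, and from −0.05 to 0.04 without a siGATAD2A library), WEE1 in siCARM1 (−0.04 to 0.07 without a siCARM1 library), and CCNB2 in siCHD4 (−0.14 to 0.02 without a siCHD4 library) and in siGATAD2A (−0.08 to 0.0091 without a siGATAD2A library). With no fold minimum, 7 members were lower and 1 higher in siCARM1, 5 and 2 in siCHD4, and 4 and 2 in siGATAD2A. In siHDAC2, 5 were lower and 0 higher, and in siKDM1A 7 were lower and 0 higher. At that setting 47 differences between knockdowns were called, and 74 pathway changes were lower and 53 higher. The share of all genes called with no fold minimum was not computed for these comparisons. These counts therefore do not set the members or the pathway genes apart. Members lower in siHDAC2 numbered 2 with unstranded counts and with filterByExpr. Leaving out each library in turn gave 3 to 6 members lower in siCARM1, 2 to 3 in siCHD4, 1 to 2 in siHDAC2 and 2 to 3 in siKDM1A, with 3 in siGATAD2A in each case, and 21 to 23 differences between knockdowns. With a lone library in a group, its spread was assumed to be that of the other groups. The ratio of CDC25 to WEE1 and PKMYT1 FPKM was 1.96 in siCTL and 1.73 in siCHD4 with unstranded counts, and siGATAD2A stayed the lowest group.

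Same-numbered libraries deviated from their group means with correlations between −0.142 and 0.136, and 1 of 15 pairs of groups was above 0.1. No pairing by number was seen, though such correlations with 2 libraries per group cannot exclude it. A replicate block gave 4, 2, 1, 3 and 3 members lower in siCARM1, siCHD4, siHDAC2, siGATAD2A and siKDM1A and 22 called differences between knockdowns, and changed none of the 50 calls. The CHD4 transcript fell least in its own knockdown by these counts (log2 fold change −0.54). Another gene on the same strand shares 46.9% of its exonic bases. Whether this affects the depletion measured by the counts was not tested. Precision is limited by 2 libraries per group, and changes near 1.2-fold, such as those of CCNA2, lie at the edge of a call.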
